A study of Arabidopsis thaliana with 18 samples.

Results

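The change in WT (Col-0) seeds over 48 h of cold, started at 11 days after pollination (DAP), was measured in 6 of the 18 libraries of the series, chosen by their genotype, stage and treatment labels. The 11 DAP+Cold group is 3 libraries of WT at 11 DAP moved from 22 °C to cold for 48 h, and it is set against 3 of WT at 11 DAP kept at 22 °C. The labels give 13 °C as the cold temperature and the description of the experiment gives 10 °C. The 11 DAP+Cold seeds were also 2 days older than the 11 DAP seeds, so cold and added age cannot be told apart within this comparison. Beside it stand 3 WT libraries after 6 h of cold, 3 WT libraries at 13 DAP kept at 22 °C, which have the age of the 11 DAP+Cold seeds, and the same 48 h comparison in 3 and 3 libraries of *myb107-2*, a mutant of 1 transcription factor gene. Each library held RNA of dissected endosperm and seed coat, pooled from siliques of several plants. Whether replicates came from different plants is not stated, so the p-values measure only the spread between these libraries.

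The *Arabidopsis* seed coat grows from the integuments of the ovule and is maternal, whereas the endosperm beneath it comes from fertilisation. In the outer integument 1 layer, suberin, a polyester of fatty acids, glycerol and ferulate, and lignin are laid down late in development, and the transcription factors MYB107 and MYB9 are known to promote suberin genes. Vegetative tissues answer cold through the CBF factors, which bind the C-repeat in promoters of cold-regulated (*COR*) genes, and through the circadian clock, whose morning factors bind the evening element. Cold during seed maturation is known to deepen dormancy, and *DOG1* is a central dormancy gene.

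Nuclear counts summed to between 43.1 M and 75.9 M in the 11 DAP+Cold libraries and to between 65.1 M and 84.0 M in the 11 DAP libraries, so that 3 counts, taken as the limit of detection, stood for 0.0347 to 0.0686 CPM in single libraries. Genes of the ribosomal RNA units held 6.13% to 10.1% of the counts at 11 DAP+Cold and 9.58% to 16.4% at 11 DAP. The tissue label was checked against 9 seed coat and 8 endosperm markers. The seed coat markers summed to between 830.2 and 1603 CPM at 11 DAP+Cold and between 2209 and 2255 CPM at 11 DAP. Most of each sum came from the laccase gene *LAC15*, and no seed coat marker was at 0 in either group. The endosperm markers summed to between 14088 and 22143 CPM at 11 DAP+Cold and between 13495 and 18367 CPM at 11 DAP. Of these 8 markers, 1 was at 0 in all 11 DAP+Cold libraries and 2 in all 11 DAP libraries. In each group 4 reached a mean of 5 CPM. The 1 endosperm marker called, *SUC5*, was lower at 11 DAP+Cold. Of 9 markers of the embryo, which the dissection removes, 5 were at 0 in all 11 DAP+Cold libraries and 6 in all 11 DAP libraries, and the list summed to between 21.2 and 27.5 CPM and between 13.6 and 18.8 CPM, most of it from *CUC1*. Replicate 3 of 11 DAP+Cold, the shallowest of the 6 libraries, stood apart from its group. The SD of its log2 ratio to the other libraries of its group was 0.546 over 17363 genes, whereas the other 5 libraries had 0.359 to 0.398.

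Of 26245 nuclear genes with a count, 735 genes (2.80%) were called higher and 841 genes (3.20%) lower at 11 DAP+Cold than at 11 DAP, with an adjusted p of at most 0.05 and at least a 2-fold change. Adjusted p-values here and below are Benjamini-Hochberg values of edgeR's quasi-likelihood F-test over all genes tested. The median log2 fold change was 1.67 among the genes called higher and -1.77 among those called lower, against 0.00 over all genes tested. The 3 libraries of each group did not overlap in 729 of the 735 and 822 of the 841 genes, a pattern shown by 3901 genes (14.9%) in the higher and 4181 genes (15.9%) in the lower direction among all tested. Among the genes called higher, 39 had no count in any 11 DAP library, and among those called lower, 78 had no count in any 11 DAP+Cold library. Replicate 3 was the highest of the 3 11 DAP+Cold libraries in 547 of the genes called higher (74.4%) and the lowest in 468 of those called lower (55.6%), whereas among the 17377 genes of at least 1 CPM it was the highest in 39.4% and the lowest in 41.6%. Without this library, 546 genes were called higher and 530 lower. Without replicate 2 of 11 DAP, 502 genes were called higher and 581 lower. In these mixed tissues, fewer cells of a type and less RNA per cell cannot be told apart. The plot of change against level shows where the genes named below lie among all genes.

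**Figure D1:**
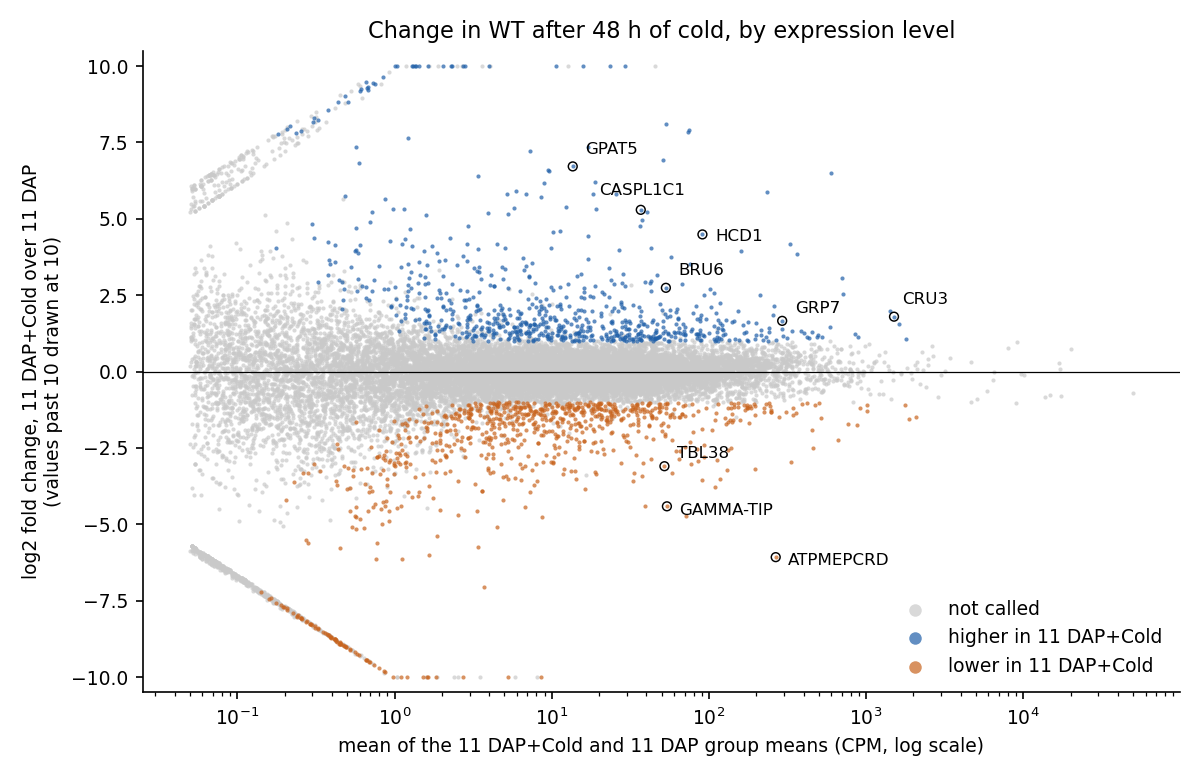
Log2 fold change of 11 DAP+Cold over 11 DAP (y axis, values past 10 drawn at 10) against the mean of the 2 group means in CPM (x axis, log scale), 1 point per gene with a mean of at least 0.05 CPM. Blue points are among the 735 genes called higher and orange points among the 841 called lower, and *ATPMEPCRD* at -6.07 and *GPAT5* at 6.71 lie far from the bulk of genes around 0, while the slanted bands at the edges are genes with no count in 1 of the groups.

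The 8 genes with the smallest p among those called higher and at least 5 CPM include genes of cold and of the cell wall. *BRU6* (AT4G37390, chr4:17579618-17582022), which encodes an auxin-conjugating enzyme of the GH3 family, reached 95.2, 110.0 and 73.2 CPM at 11 DAP+Cold, against 16.5, 11.0 and 13.7 CPM at 11 DAP (log2 fold change 2.74, SE 0.19, adjusted p = 1.8e-05). The lowest 11 DAP+Cold library lay more than 4 times above the highest 11 DAP library. *COR27* (AT5G42900, chr5:17197641-17199910), a cold-regulated gene with a role in the clock, reached 22.7, 21.6 and 22.1 CPM at 11 DAP+Cold, against 6.14, 4.75 and 6.58 CPM at 11 DAP (log2 fold change 1.91, SE 0.15, adjusted p = 2.8e-05). The gene AT4G33980 reached 11.9, 11.8 and 17.7 CPM at 11 DAP+Cold, against 1.01, 1.51 and 0.954 CPM at 11 DAP (log2 fold change 3.55, adjusted p = 2e-05). The groups of both genes were more than 3-fold apart at their nearest libraries. *MAF3*, a MADS-box repressor of flowering from the clade of *FLC*, reached 34.2, 43.8 and 37.9 CPM at 11 DAP+Cold, against 11.5, 8.51 and 8.95 CPM at 11 DAP (log2 fold change 1.98, adjusted p = 2.8e-05). AT5G15950, an S-adenosylmethionine decarboxylase gene of polyamine synthesis, reached 242, 220.0 and 198 CPM at 11 DAP+Cold, against 65.5, 68.8 and 72.2 CPM at 11 DAP (log2 fold change 1.66, adjusted p = 2.8e-05). *HCD1*, annotated as 3-hydroxyacyl-CoA dehydratase, reached 144, 95.2 and 284 CPM at 11 DAP+Cold, against 5.33, 6.71 and 11.0 CPM at 11 DAP (log2 fold change 4.49, adjusted p = 2.8e-05). Its 11 DAP+Cold libraries spread by more than 2-fold, with replicate 3 highest. The other 2 of the 8, *GPAT5* and *CASPL1D2*, are described with the suberin genes.

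The 2 CBF factors with more than traces of counts were called higher. *CBF1* reached 19.1, 23.1 and 22.0 CPM at 11 DAP+Cold, against 9.23, 6.40 and 6.82 CPM at 11 DAP (log2 fold change 1.50, adjusted p = 0.0094). *CBF2* reached 21.6, 19.6 and 36.5 CPM at 11 DAP+Cold, against 9.62, 8.24 and 10.1 CPM at 11 DAP (log2 fold change 1.45, adjusted p = 0.0084). Their groups did not overlap. *CBF3* stayed below 1 CPM in the 6 libraries (log2 fold change 0.40, adjusted p = 0.86). Of 10 early cold factors that act beside the CBFs, 4 were called higher and none lower, with a median log2 fold change of 0.77. They were the zinc finger genes *ZAT6*, *ZAT10* and *ZAT12* and the ethylene response factor gene *ERF5*. *ZAT10* reached 675, 660.1 and 674 CPM at 11 DAP+Cold, against 379, 277 and 249 CPM at 11 DAP (log2 fold change 1.13, adjusted p = 0.0034), *ZAT12* had a log2 fold change of 1.26 (adjusted p = 0.0078) and *ZAT6* of 1.31 (adjusted p = 0.0015). *ICE1*, the activator of *CBF* genes, reached 195, 228 and 216 CPM at 11 DAP+Cold, against 191, 189.6 and 169 CPM at 11 DAP and was not called (log2 fold change 0.20, adjusted p = 0.38).

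Among 14 *COR* genes, 4 were called higher and none lower, with a median of 0.71. The dehydrin gene *LTI30* reached 9.73, 10.5 and 10.2 CPM at 11 DAP+Cold, against 3.29, 2.44 and 2.27 CPM at 11 DAP (log2 fold change 1.90, adjusted p = 6.4e-05). *RD29B* reached 12.8, 11.2 and 14.6 CPM at 11 DAP+Cold, against 5.07, 6.08 and 5.96 CPM at 11 DAP (log2 fold change 1.16, adjusted p = 0.002), each without overlap. The neighbouring near-copies *COR6.6* and *KIN1*, whose reads can be split between them, were also called. *COR6.6* reached 3.84, 10.1 and 58.0 CPM at 11 DAP+Cold, against 0.741, 0 and 0.887 CPM at 11 DAP (log2 fold change 5.40, adjusted p = 0.0024), or a log2 fold change of 3.66 without replicate 3 of 11 DAP+Cold (adjusted p = 0.0028). *KIN1* reached 0.297, 1.36 and 6.45 CPM at 11 DAP+Cold and had no count at 11 DAP, which makes it at least 70.5-fold higher on average against 3 counts per library, and at least 21.6-fold without replicate 3. Its adjusted p was 0.01, and its call was lost when only the 6 libraries of the comparison were fitted (adjusted p = 0.059). At 13 DAP without cold, *COR6.6* averaged 954 ± 147 CPM and *KIN1* 503 ± 148 CPM (SD, n = 3 each), above all 11 DAP+Cold libraries. Other known targets of the CBFs were not among the called genes. *RD29A* reached 4.33, 5.31 and 2.79 CPM at 11 DAP+Cold, against 3.40, 2.89 and 2.57 CPM at 11 DAP (log2 fold change 0.50, adjusted p = 0.24). Its groups overlapped. *COR15A* had no count in the 3 11 DAP+Cold libraries and at most 0.116 CPM in the 11 DAP libraries. *COR15B* reached 0.338, 0.164 and 0.686 CPM at 11 DAP+Cold and had no count at 11 DAP, and its adjusted p was 0.055. *COR47* reached 73.8, 80.7 and 111 CPM at 11 DAP+Cold, against 90.7, 145 and 194 CPM at 11 DAP (log2 fold change -0.71, adjusted p = 0.1). *ERD10* reached 399.6, 471 and 639 CPM at 11 DAP+Cold, against 455, 526 and 618 CPM at 11 DAP (log2 fold change -0.10, adjusted p = 0.84).

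The 250 bases before the start of 5 of these genes, or of clock genes named below, are shown because they were searched for motifs through which cold and the clock are known to act, in called and not called genes alike. They were read 5′ to 3′ on the strand of the gene from TAIR10.1, and capitals mark the C-repeat core CCGAC, the evening element AAAATATCT and the G-box CACGTG on either strand. No other annotated gene lies in these windows.
BRU6 (chr4:17579368-17579617, plus strand): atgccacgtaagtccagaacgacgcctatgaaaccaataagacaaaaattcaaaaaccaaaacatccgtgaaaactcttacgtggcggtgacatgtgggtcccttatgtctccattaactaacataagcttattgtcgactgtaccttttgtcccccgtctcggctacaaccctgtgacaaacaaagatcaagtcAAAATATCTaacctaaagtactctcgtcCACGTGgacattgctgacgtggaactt
PRR5 (chr5:8358547-8358796, minus strand): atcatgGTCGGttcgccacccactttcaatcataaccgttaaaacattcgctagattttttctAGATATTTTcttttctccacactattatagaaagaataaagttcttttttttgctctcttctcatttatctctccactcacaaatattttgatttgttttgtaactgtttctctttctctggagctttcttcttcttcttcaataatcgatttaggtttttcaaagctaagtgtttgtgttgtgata
RD29B (chr5:21236771-21237020, plus strand): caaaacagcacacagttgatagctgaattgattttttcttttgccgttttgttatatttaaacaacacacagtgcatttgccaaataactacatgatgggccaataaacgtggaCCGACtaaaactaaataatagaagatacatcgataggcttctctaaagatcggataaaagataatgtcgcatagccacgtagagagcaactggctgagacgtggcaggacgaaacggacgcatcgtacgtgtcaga
RD29A (chr5:21240467-21240716, plus strand): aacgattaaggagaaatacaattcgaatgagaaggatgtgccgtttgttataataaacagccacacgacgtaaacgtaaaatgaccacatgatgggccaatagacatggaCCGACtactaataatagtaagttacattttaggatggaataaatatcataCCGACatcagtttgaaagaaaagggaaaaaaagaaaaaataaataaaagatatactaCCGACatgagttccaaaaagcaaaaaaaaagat
COR15A (chr2:17712331-17712580, minus strand): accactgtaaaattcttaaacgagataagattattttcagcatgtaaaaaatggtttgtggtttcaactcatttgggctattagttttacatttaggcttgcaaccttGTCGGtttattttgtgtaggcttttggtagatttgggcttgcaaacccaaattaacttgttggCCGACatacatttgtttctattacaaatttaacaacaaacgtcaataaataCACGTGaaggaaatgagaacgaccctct
*BRU6* holds 1 evening element and 1 G-box, and *PRR5* holds 1 evening element and 1 C-repeat core. The evening element is also in *LUX*, *TOC1* and *RAB18*, which were not called. It is in neither *ELF4* nor *PRR9*, which were called. Of the called *COR* genes, *LTI30* holds 3 C-repeat cores, *RD29B* 1 and *COR6.6* and *KIN1* none. Of those not called, *RD29A* holds 3 and *COR15A* 2. Over all tested genes with a window, 12.4% hold the C-repeat core, 2.33% the evening element and 6.55% the G-box. Among the 735 genes called higher the shares are 14.1%, 3.13% and 13.2%, and among the 841 called lower 10.7%, 2.85% and 7.13%. Of the 14 *COR* genes, 6 hold the C-repeat core and 1 the evening element. Of the 13 clock genes, 3 hold the evening element and 6 the G-box. These are matches of letters, with no test of binding.

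Among 6 cold shock and glycine-rich RNA-binding protein genes, *GRP7*, which encodes a protein under clock control that binds RNA in the cold, was called higher and none was called lower. *GRP7* reached 415, 429.9 and 494 CPM at 11 DAP+Cold, against 174, 133 and 112 CPM at 11 DAP (log2 fold change 1.66, adjusted p = 0.00012), with all 11 DAP+Cold libraries more than 2-fold above the highest 11 DAP library. Its relative *GRP8* reached 243, 273 and 439.6 CPM at 11 DAP+Cold, against 172, 139 and 189 CPM at 11 DAP and passed the adjusted p but not the fold change minimum (log2 fold change 0.92, adjusted p = 0.022). The 4 *CSP* genes of cold shock proteins had log2 fold changes of -0.33 to 0.27 and adjusted p of at least 0.11.

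Of 13 clock genes, 3 were called higher and none lower, with a median of 0.51. *PRR5*, a repressor expressed in the afternoon, reached 6.66, 8.21 and 8.33 CPM at 11 DAP+Cold, against 1.92, 1.92 and 1.24 CPM at 11 DAP (log2 fold change 2.17, adjusted p = 0.0011). The evening gene *ELF4* reached 2.00, 1.41 and 1.97 CPM at 11 DAP+Cold, against 0.509, 0.400 and 0.242 CPM at 11 DAP (log2 fold change 2.17, adjusted p = 0.0035). The third called, *PRR9*, a repressor of the morning, reached 24.6, 24.3 and 18.1 CPM at 11 DAP+Cold, against 13.3, 10.9 and 5.63 CPM at 11 DAP (log2 fold change 1.15, adjusted p = 0.017). This call was lost without 11 DAP+Cold replicate 1 (log2 fold change 1.08, adjusted p = 0.052) or 2 (log2 fold change 1.09, adjusted p = 0.058) or without 11 DAP replicate 3 (log2 fold change 0.87, adjusted p = 0.048), with adjusted p of 0.011 to 0.058 over the 6 fits with 1 library left out. *LUX*, another evening gene, reached 22.3, 21.4 and 17.1 CPM at 11 DAP+Cold, against 8.99, 10.7 and 11.6 CPM at 11 DAP and stayed just under the fold change minimum (log2 fold change 0.95, adjusted p = 0.0022). The morning genes *CCA1* and *LHY* were not called, with 62.5, 63.0 and 41.1 CPM at 11 DAP+Cold, against 43.3, 29.5 and 20.04 CPM at 11 DAP for *CCA1* (log2 fold change 0.83, adjusted p = 0.079) and 88.1, 101 and 86.3 CPM at 11 DAP+Cold, against 88.2, 74.4 and 52.6 CPM at 11 DAP for *LHY* (log2 fold change 0.34, adjusted p = 0.49). The groups of both overlapped. The hour at which each group was collected is not given in the sources used here.

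**Figure D2:**
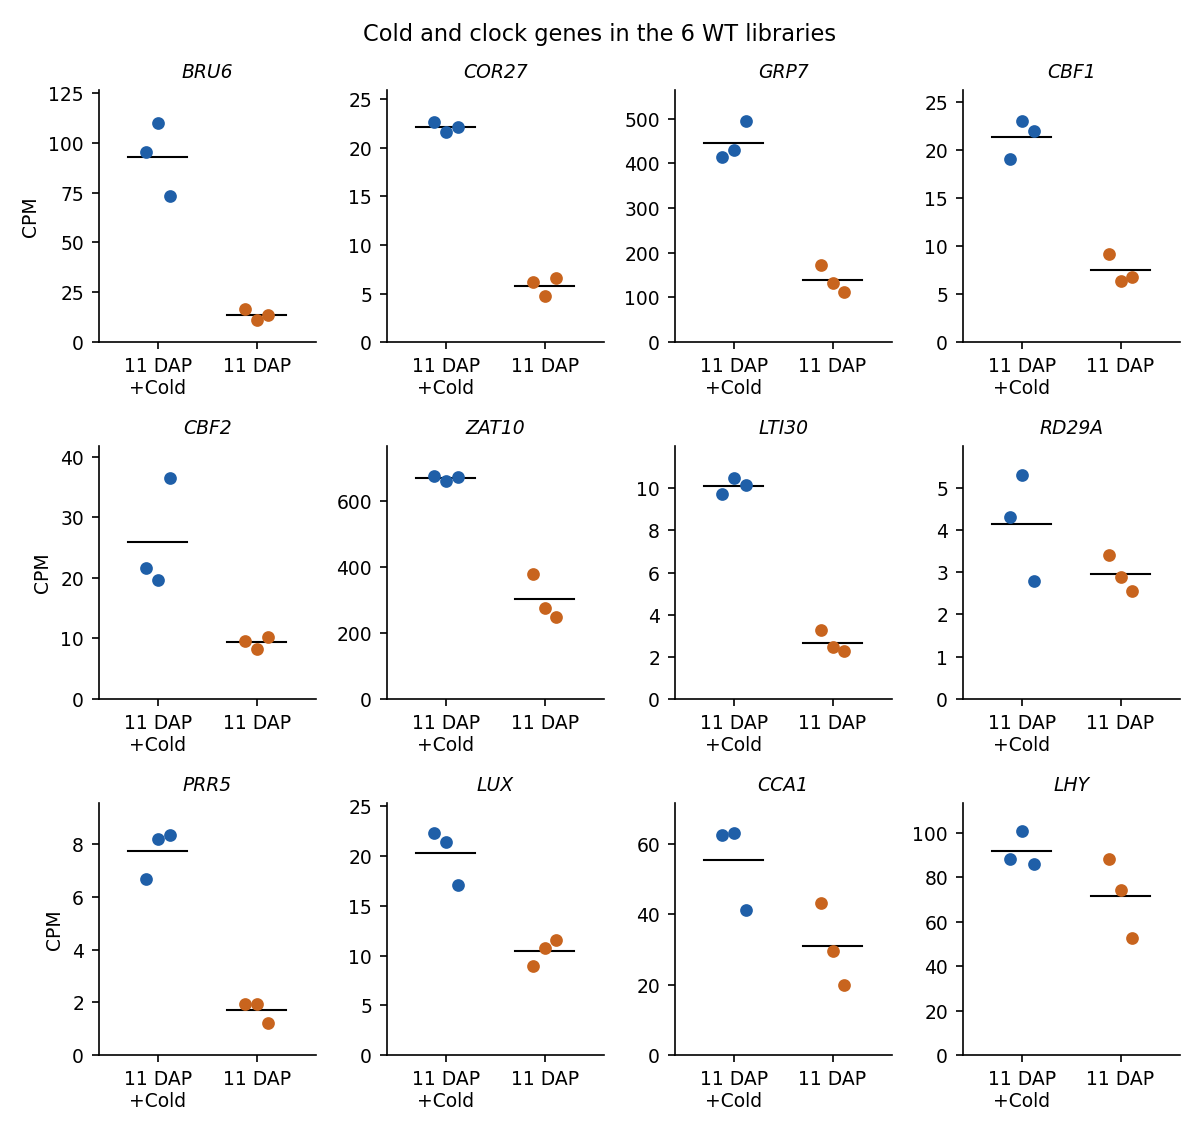
CPM (y axis, from 0, a scale of its own for each gene) of 12 cold and clock genes in the 3 11 DAP+Cold libraries (left, blue) and the 3 11 DAP libraries (right, orange), with a line at the mean. The groups are apart in *BRU6*, *COR27*, *GRP7*, *CBF1*, *CBF2*, *ZAT10*, *LTI30*, *PRR5* and *LUX*, and overlap in *RD29A*, *CCA1* and *LHY*.

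The libraries after 6 h of cold give an earlier time for the same genes, set against the same 11 DAP libraries. *RD29A* averaged 32.7 ± 5.99 CPM after 6 h (log2 fold change 3.45, adjusted p = 7.5e-06). Its values at 11 DAP+Cold were 4.33, 5.31 and 2.79 CPM. *GRP7* averaged 1611 ± 153 CPM after 6 h (log2 fold change 3.52, adjusted p = 1.8e-06) and 446 ± 41.8 CPM at 11 DAP+Cold. *COR15A* averaged 2.39 ± 1.23 CPM after 6 h (SD, n = 3, adjusted p = 0.004) and had no count after 48 h. *BRU6* averaged 94.3 ± 4.87 CPM after 6 h (log2 fold change 2.77, adjusted p = 6.5e-06) and 92.8 ± 18.5 CPM at 11 DAP+Cold. *RD29A*, *GRP7*, *COR15A* and *BRU6* were all called higher at 6 h, while *CBF1* with 14.6 ± 2.83 CPM (adjusted p = 0.15) and *ZAT10* with 300.4 ± 56.5 CPM (adjusted p = 1) were not. The suberin gene *GPAT5* averaged 0.0454 ± 0.0786 CPM after 6 h (adjusted p = 0.48) and its regulator *MYB9* 1.03 ± 0.945 CPM (adjusted p = 0.85), and neither was called. At 6 h, 129 genes (0.492%) were called higher and 230 genes (0.876%) lower than at 11 DAP.

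**Figure D3:**
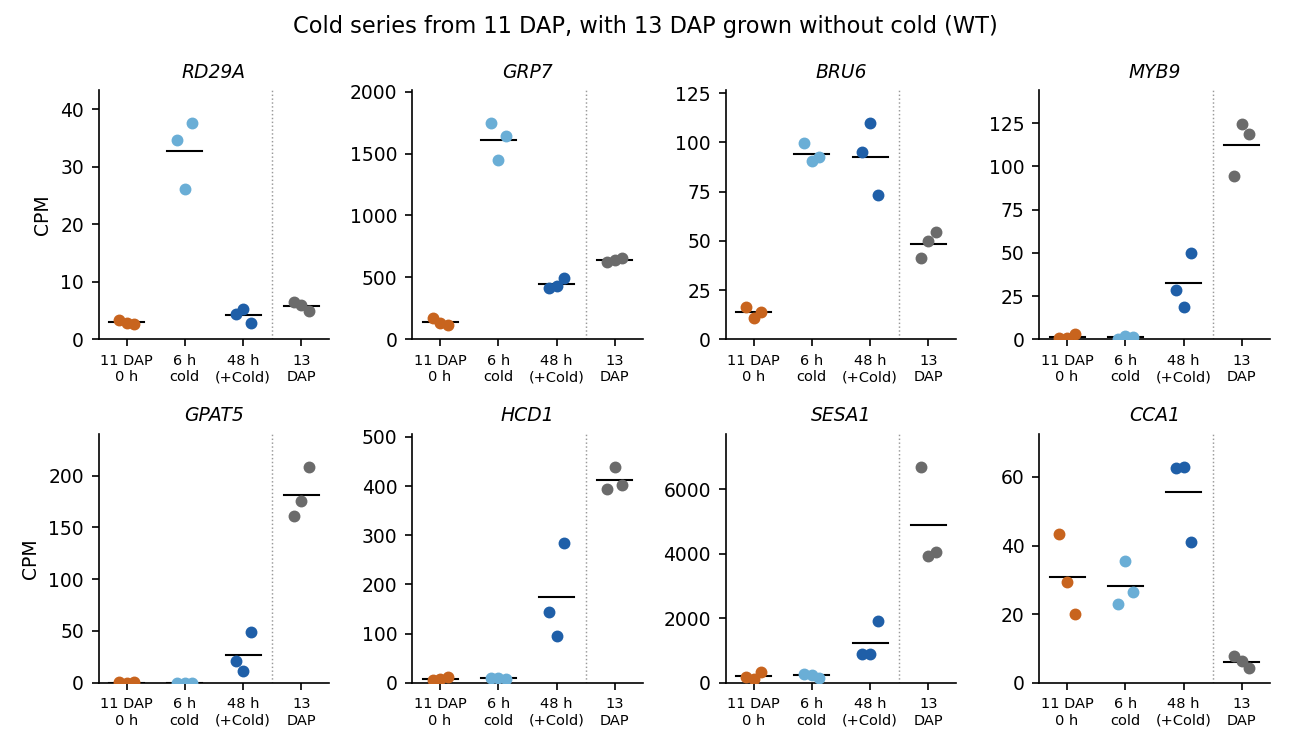
CPM (y axis, from 0) of 8 genes in the WT libraries at 11 DAP (0 h), after 6 h and after 48 h of cold, and, right of the dotted line, at 13 DAP without cold, with 3 points per group and a line at the mean. *RD29A* and *GRP7* are highest after 6 h, *BRU6* averages 94.3 ± 4.87 CPM after 6 h and 92.8 ± 18.5 CPM after 48 h, *MYB9*, *GPAT5*, *HCD1* and *SESA1* are highest at 13 DAP, and *CCA1* is lowest at 13 DAP.

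Sugar and proline genes known to respond to cold were called in part. Of 10 such genes, 3 were higher and none lower, with a median of 0.81. The sucrose synthase gene *SUS3* reached 40.4, 45.3 and 37.5 CPM at 11 DAP+Cold, against 16.1, 12.9 and 15.9 CPM at 11 DAP (log2 fold change 1.44, adjusted p = 8.1e-05). The beta-amylase gene *BAM3* reached 147, 134 and 97.1 CPM at 11 DAP+Cold, against 71.3, 44.4 and 30.2 CPM at 11 DAP (log2 fold change 1.35, adjusted p = 0.0093). The proline synthesis gene *P5CS1* reached 14.4, 17.6 and 13.3 CPM at 11 DAP+Cold, against 8.00, 6.11 and 5.45 CPM at 11 DAP (log2 fold change 1.20, adjusted p = 0.01). This call was lost without 11 DAP replicate 2 (log2 fold change 1.16, adjusted p = 0.05, just past the threshold) or 3 (log2 fold change 1.08, adjusted p = 0.051), over fits with adjusted p of 0.014 to 0.051. None of 9 fatty acid desaturase genes was called in either direction, with a median of -0.30. *FAB2*, the stearoyl desaturase gene, was lower without reaching a 2-fold change, with 172, 184 and 154 CPM at 11 DAP+Cold, against 243, 308 and 318 CPM at 11 DAP (log2 fold change -0.78, adjusted p = 0.0051). None of 10 ribosome biogenesis genes was called, with a median of 0.33, and *FIB2*, a fibrillarin gene, reached 28.6, 24.9 and 22.8 CPM at 11 DAP+Cold, against 11.7, 11.4 and 15.0 CPM at 11 DAP and stopped just short of a 2-fold change (log2 fold change 0.99, adjusted p = 0.0018), and it overlaps AT4G25631 on the same strand, with which reads may be shared. Of 12 heat shock genes, *HSP90.1* was called lower with 33.0, 45.8 and 48.6 CPM at 11 DAP+Cold, against 72.1, 411 and 224 CPM at 11 DAP (log2 fold change -2.49, adjusted p = 0.02). Its 11 DAP libraries spread by more than 5-fold, and its call was lost without 11 DAP replicate 2 (log2 fold change -1.81, adjusted p = 0.11) and without 11 DAP+Cold replicate 1 (-2.34), 2 (-2.55) or 3 (-2.58), over fits with adjusted p of 0.0076 to 0.11. Of 16 light and temperature regulators, *PIF4* was called lower, with 0.541, 0.375 and 0 CPM at 11 DAP+Cold, against 1.35, 1.13 and 1.41 CPM at 11 DAP (log2 fold change -1.92, adjusted p = 0.043). Its call was lost in each of the 6 fits with 1 library left out, with adjusted p of 0.053 to 0.12 and log2 fold changes from -2.44 without 11 DAP+Cold replicate 1 to -1.52 without 11 DAP+Cold replicate 3.

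Of 15 genes of suberin synthesis and export, 9 were called higher and none lower, with a median log2 fold change of 2.11. *GPAT5* (AT3G11430, chr3:3595694-3597952), which makes the glycerol esters of suberin, reached 20.7, 11.5 and 48.8 CPM at 11 DAP+Cold, against 0.382, 0 and 0.349 CPM at 11 DAP (log2 fold change 6.71, SE 0.64, adjusted p = 2.8e-05). The transporter gene *ABCG6* reached 77.4, 53.8 and 113 CPM at 11 DAP+Cold, against 4.72, 3.16 and 6.69 CPM at 11 DAP (log2 fold change 4.05, adjusted p = 4e-05). *FAR1*, which makes the fatty alcohols of suberin, reached 18.03, 12.6 and 25.5 CPM at 11 DAP+Cold, against 0.625, 0.614 and 2.15 CPM at 11 DAP (log2 fold change 4.04, adjusted p = 0.00065). The elongase gene *KCS20* reached 19.6, 9.24 and 24.2 CPM at 11 DAP+Cold, against 3.15, 2.51 and 6.11 CPM at 11 DAP (log2 fold change 2.15, adjusted p = 0.0014). In each of these 4 genes replicate 3 was the highest and replicate 2 the lowest of the 11 DAP+Cold libraries, and all 3 lay above the 11 DAP libraries. Without 11 DAP+Cold replicate 3 the log2 fold change of *GPAT5* was 6.00 (adjusted p = 1.6e-05), and without 11 DAP replicate 3 that of *FAR1* was 4.88 (adjusted p = 0.001). The other 5 called were *CYP86B1*, *KCS1*, *FAR5*, *GPAT7* and *CYP86A1*. *CYP86A1*, a fatty acid hydroxylase gene, reached 0.649, 1.82 and 14.3 CPM at 11 DAP+Cold with no count at 11 DAP, at least 146-fold higher on average (adjusted p = 0.014) and at least 32.2-fold without replicate 3. Its call was lost with robust empirical Bayes (adjusted p = 0.12) and when only the 6 libraries were fitted (adjusted p = 0.052). *ASFT*, which adds ferulate to suberin, reached 636, 516 and 674 CPM at 11 DAP+Cold, against 299.8, 285 and 377 CPM at 11 DAP and stayed under the fold change minimum (log2 fold change 0.91, adjusted p = 0.0056). *FACT* and *FAR4* had no count in any of the 6 libraries, against 57.2 ± 17.7 CPM of *FAR4* at 13 DAP.

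Of 6 suberin MYB factors with a count, *MYB9* was called higher and none lower. *MYB9* (AT5G16770, chr5:5514717-5517153) reached 28.4, 18.8 and 49.97 CPM at 11 DAP+Cold, against 0.521, 0.774 and 3.17 CPM at 11 DAP (log2 fold change 4.44, SE 0.66, adjusted p = 0.00082), and it overlaps AT5G16780 on the other strand. Without 11 DAP replicate 3 its log2 fold change was 5.62 (adjusted p = 0.00073). *MYB107* (AT3G02940, chr3:661849-664011) reached 62.0, 52.3 and 43.5 CPM at 11 DAP+Cold, against 40.5, 27.8 and 34.7 CPM at 11 DAP (log2 fold change 0.60, SE 0.19, adjusted p = 0.059). Its 3 11 DAP+Cold libraries lay above its 3 11 DAP libraries, but it was not called. *MYB41* reached 0.541, 0.363 and 2.01 CPM at 11 DAP+Cold with no count at 11 DAP and did not pass the test (adjusted p = 0.064).

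Genes of CASP-like proteins, a family of membrane proteins that in the root endodermis includes those placing the Casparian strip, were called in part. *CASPL1D2* (AT3G06390, chr3:1938335-1939853) reached 27.0, 16.6 and 58.5 CPM at 11 DAP+Cold, against 0.231, 0 and 0.376 CPM at 11 DAP (log2 fold change 7.35, SE 0.64, adjusted p = 2.8e-05), and *CASPL1C1* (AT4G03540, chr4:1569937-1571737) reached 51.3, 33.7 and 131 CPM at 11 DAP+Cold, against 0.984, 0.480 and 4.00 CPM at 11 DAP (log2 fold change 5.29, SE 0.65, adjusted p = 0.00025). Without 11 DAP+Cold replicate 3 their log2 fold changes were 6.73 for *CASPL1D2* and 4.56 for *CASPL1C1*, and without 11 DAP replicate 3 they were 8.05 for *CASPL1D2* and 6.56 for *CASPL1C1*, all still called. Of 32 genes with this annotation and a count, 6 were called higher and none lower, whereas their median log2 fold change was -0.17. Families by annotated product were picked after values were seen and are given as counts only. One CASP-like gene, AT5G44550, had the largest fold change of all genes over 5 CPM without overlap, with 20.4, 22.4 and 132 CPM at 11 DAP+Cold and no count at 11 DAP, at least 1518-fold higher on average (adjusted p = 5e-04) and at least 559-fold without replicate 3. DESeq2 gave no adjusted p for this gene. The next 4 by size were the dirigent-like gene AT2G21100 with 23.0, 15.5 and 103 CPM, AT4G17215 with 15.6, 13.6 and 66.3 CPM, the pectin lyase-like gene AT2G43880 with 23.1, 10.7 and 30.1 CPM and AT3G04180 with 3.24, 3.40 and 17.2 CPM at 11 DAP+Cold, each with no count at 11 DAP. In AT5G44550, AT2G21100, AT4G17215 and AT3G04180 replicate 3 held more than 4 times the next library. At 13 DAP without cold, AT5G44550 averaged 923 ± 34.7 CPM and was called lower at 11 DAP+Cold than there (log2 fold change -3.98, adjusted p = 0.0035). So was *CASPL1D2*, with 119 ± 23.0 CPM at 13 DAP (log2 fold change -1.80, adjusted p = 0.0096). *CASPL1C1* had 110 ± 14.2 CPM at 13 DAP and was not called (log2 fold change -0.59, adjusted p = 0.55).

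Cutin and lignin genes were called in part. Of 11 cutin genes, 3 were higher and none lower, with a median of -0.19. *GPAT4* makes cutin glycerol esters, and the study also ties it to polyester deposits of outer integument 1 cells. It reached 132, 83.1 and 203 CPM at 11 DAP+Cold, against 10.5, 8.92 and 16.9 CPM at 11 DAP (log2 fold change 3.51, adjusted p = 3.9e-05). The acyl-CoA synthetase gene *LACS2* reached 49.8, 37.2 and 75.6 CPM at 11 DAP+Cold, against 11.4, 9.59 and 14.2 CPM at 11 DAP (log2 fold change 2.19, adjusted p = 0.0011). *CYP86A8* had a log2 fold change of 1.34 (adjusted p = 0.0022). Of 19 phenylpropanoid and monolignol genes, 3 were higher and none lower, with a median of 0.38. *PAL1* and *PAL4* encode the first enzyme of the pathway, phenylalanine ammonia-lyase. *PAL1* reached 37.6, 28.9 and 70.7 CPM at 11 DAP+Cold, against 10.4, 7.70 and 9.86 CPM at 11 DAP (log2 fold change 2.27, adjusted p = 0.00035). *PAL4* reached 40.4, 27.1 and 86.9 CPM at 11 DAP+Cold, against 4.30, 9.62 and 7.94 CPM at 11 DAP (log2 fold change 2.80, adjusted p = 0.0023), or a log2 fold change of 2.21 without 11 DAP+Cold replicate 3 (adjusted p = 0.0088). *4CL1*, a coumarate ligase gene, was the third (log2 fold change 1.12, adjusted p = 0.0046). This call was lost without 11 DAP+Cold replicate 3 (log2 fold change 0.79, adjusted p = 0.011), over fits with adjusted p of 0.0029 to 0.026. *CCOAOMT1* reached 664, 606 and 1085 CPM at 11 DAP+Cold, against 422, 381 and 362 CPM at 11 DAP and *CCR1* 275, 312 and 300.5 CPM at 11 DAP+Cold, against 191, 154 and 189 CPM at 11 DAP, and both passed the adjusted p and not the fold change minimum (1.00 and 0.72 on the log2 scale, adjusted p = 0.0073 and 0.0064). The hydroxylase gene *C4H*, later in the pathway, overlapped between the groups with 65.5, 53.0 and 100.1 CPM at 11 DAP+Cold, against 83.7, 71.8 and 71.4 CPM at 11 DAP (log2 fold change -0.07, adjusted p = 0.89), as did *CAD4*, *CAD5* and *COMT1*, whose adjusted p were at least 0.78.

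Laccases, copper enzymes that oxidise monolignols and flavonoids in the wall, differed among themselves. Of 15 with a count, 4 were called higher and none lower, while the median was -0.08. *LAC12* reached 79.1, 46.7 and 93.6 CPM at 11 DAP+Cold, against 0.903, 1.47 and 4.66 CPM at 11 DAP (log2 fold change 4.96, adjusted p = 6.7e-05). *LAC3* reached 112, 51.1 and 141 CPM at 11 DAP+Cold, against 0.255, 0.08004 and 2.19 CPM at 11 DAP (log2 fold change 6.93, adjusted p = 0.00044). Without 11 DAP replicate 3 the log2 fold changes were 5.93 for *LAC12* and 9.16 for *LAC3*, both still called. *LAC5* reached 249.7, 150.3 and 239.9 CPM at 11 DAP+Cold, against 52.8, 52.4 and 98.5 CPM at 11 DAP (log2 fold change 1.64, adjusted p = 0.0033). *LAC16* reached 4.03, 1.59 and 6.50 CPM with no count at 11 DAP. *LAC15*, 1 of the seed coat markers, is described in the study as expressed in inner integument 1 and outer integument 1 cells. It reached 1351, 1009 and 666 CPM at 11 DAP+Cold, against 1835, 1831 and 1927 CPM at 11 DAP (log2 fold change -0.90, adjusted p = 0.063). It was lower in each 11 DAP+Cold library and was not called. Without 11 DAP+Cold replicate 1 it was called lower (log2 fold change -1.17, adjusted p = 0.036), and over the 6 fits with 1 library left out adjusted p was 0.036 to 0.23. The best known stem laccase genes *LAC4* and *LAC17* stayed at or below 1.63 CPM in the 6 libraries.

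**Figure D4:**
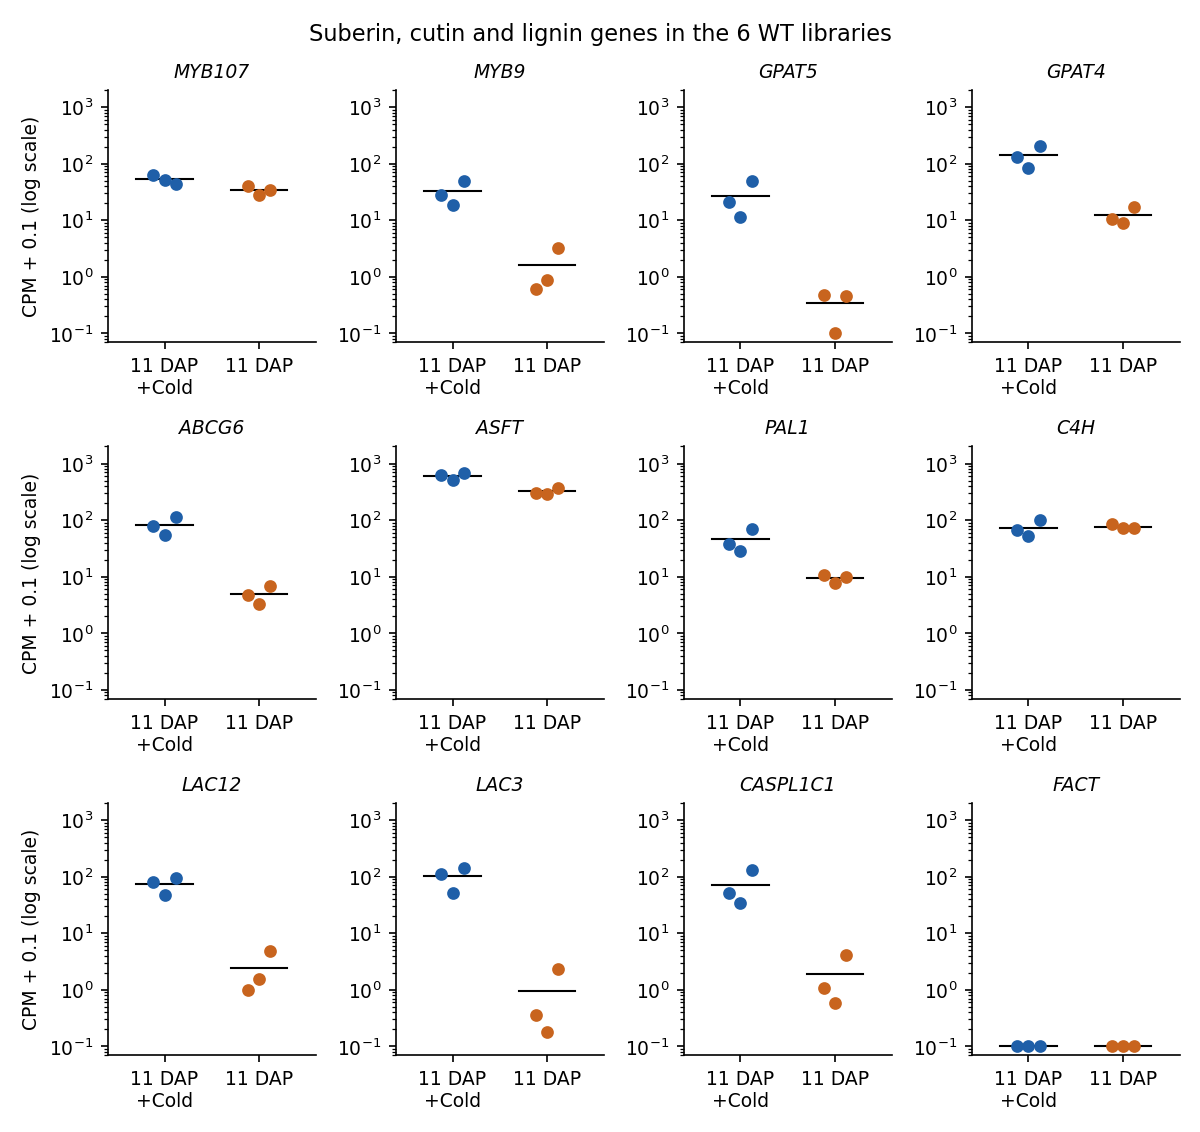
CPM plus 0.1 (y axis, log scale, the same for all genes, so that 0 counts lie at 0.1) of 12 suberin, cutin and lignin genes in the 3 11 DAP+Cold libraries (left, blue) and the 3 11 DAP libraries (right, orange), with a line at the mean. *MYB9*, *GPAT5*, *GPAT4*, *ABCG6*, *LAC12*, *LAC3* and *CASPL1C1* are more than 10-fold apart in their means, *C4H* overlaps, and *FACT* has no count in the 6 libraries.

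The 8 genes with the smallest p among those called lower include several of the cell wall and of membranes. *ATPMEPCRD* (AT2G43050, chr2:17902370-17904443), a pectin methylesterase and inhibitor family gene, reached 10.4, 9.06 and 3.80 CPM at 11 DAP+Cold, against 541, 530.4 and 503 CPM at 11 DAP (log2 fold change -6.07, SE 0.40, adjusted p = 1.8e-05). After 6 h of cold it averaged 146 ± 33.9 CPM and was also called lower (log2 fold change -1.86, adjusted p = 0.01). *TBL38* (AT1G29050, chr1:10136246-10139228), from a family of polysaccharide acetyltransferases, reached 13.6, 10.3 and 9.06 CPM at 11 DAP+Cold, against 98.5, 90.5 and 90.9 CPM at 11 DAP (log2 fold change -3.10, SE 0.23, adjusted p = 2e-05). *GAMMA-TIP* (AT2G36830, chr2:15445294-15446621), a water channel of the vacuole membrane, reached 6.28, 5.42 and 2.72 CPM at 11 DAP+Cold, against 75.6, 96.8 and 138 CPM at 11 DAP (log2 fold change -4.41, SE 0.34, adjusted p = 2.4e-05). The groups of these 3 genes were more than 5-fold apart at their nearest libraries. The beta-galactosidase gene *BGAL5* reached 10.6, 10.4 and 6.34 CPM at 11 DAP+Cold, against 71.5, 61.8 and 45.7 CPM at 11 DAP (log2 fold change -2.72, adjusted p = 3.3e-05). *HPR*, an enzyme of photorespiration, reached 3.45, 4.33 and 2.40 CPM at 11 DAP+Cold, against 20.2, 27.4 and 25.4 CPM at 11 DAP (log2 fold change -2.83, adjusted p = 3.5e-05). *ENODL10*, an early nodulin-like gene, reached 16.99, 16.1 and 10.7 CPM at 11 DAP+Cold, against 71.7, 68.5 and 53.6 CPM at 11 DAP (log2 fold change -2.15, adjusted p = 3.9e-05). AT1G28710 and AT5G47330, annotated as a sugar transferase and a hydrolase, were the other 2, with log2 fold changes of -2.97 and -1.77.

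In cell wall families by annotated product, most calls were lower. Pectin methylesterases and their inhibitors had 18 lower and 4 higher of 85 genes with a count (median -1.01), arabinogalactan proteins 14 lower and 2 higher of 51 (median -0.56), and glycosyl hydrolases 16 lower and 4 higher of 121 (median -0.38). The genes called lower include the pollen markers *VGD1* of the first family and *AGP6* and *AGP11* of the second. The sum of the pollen markers was 36.95 to 43.97 CPM at 11 DAP+Cold and 39.8 to 78.7 CPM at 11 DAP. These sums overlapped between the groups, and 11 DAP replicate 3 was the highest. Only 1 marker reached a mean of 5 CPM at 11 DAP+Cold and 2 at 11 DAP, so the sums say little of the other markers. Of 11 markers with a count, 10 had a negative log2 fold change and 1 a positive one (median -2.47). The part of pollen genes in these counts was not tested. Aquaporins had 8 lower and 1 higher of 26, with a median of -0.96. The plasma membrane aquaporin gene *PIP2A* reached 28.7, 21.5 and 20.7 CPM at 11 DAP+Cold, against 95.3, 135 and 256 CPM at 11 DAP (log2 fold change -2.79, adjusted p = 0.00025), and within 11 DAP replicate 3 was the highest, as for *GAMMA-TIP*. The 1 aquaporin called higher, *BETA-TIP* of protein storage vacuoles, reached 174, 149 and 216 CPM at 11 DAP+Cold, against 59.9, 46.4 and 78.4 CPM at 11 DAP (log2 fold change 1.53, adjusted p = 0.00035). Of 19 expansin genes, 3 were called higher and none lower (median -0.41). Of 331 ribosomal protein genes, none was called higher and 3 lower (median 0.16).

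Genes of the seed coat epidermis were called lower or not called, and flavonoid genes were called in both directions. Of 19 mucilage and epidermis genes, 2 were lower and none higher, with a median of -0.55. *GATL5* reached 37.5, 24.9 and 13.4 CPM at 11 DAP+Cold, against 279, 276 and 152 CPM at 11 DAP (log2 fold change -3.23, adjusted p = 0.00016). *MUM4*, the rhamnose synthase of mucilage pectin, reached 88.2, 79.0 and 73.8 CPM at 11 DAP+Cold, against 245, 278 and 184 CPM at 11 DAP (log2 fold change -1.57, adjusted p = 0.00079). Of 16 flavonoid and proanthocyanidin genes, 4 were lower and 2 higher, with a median of -0.63. *LDOX*, an enzyme of proanthocyanidin synthesis, reached 15.2, 16.4 and 14.8 CPM at 11 DAP+Cold, against 65.4, 50.1 and 35.0 CPM at 11 DAP (log2 fold change -1.71, adjusted p = 0.00026). *TT2*, the MYB factor that activates it, reached 5.76, 5.84 and 4.46 CPM at 11 DAP+Cold, against 12.05, 15.8 and 16.9 CPM at 11 DAP (log2 fold change -1.48, adjusted p = 0.0021). The called members that were higher make flavonols or their precursors. *CHI*, chalcone isomerase, reached 64.5, 78.9 and 123 CPM at 11 DAP+Cold, against 33.7, 20.01 and 20.9 CPM at 11 DAP (log2 fold change 1.81, adjusted p = 0.0078). *FLS1*, flavonol synthase, reached 95.1, 126 and 163 CPM at 11 DAP+Cold, against 73.9, 48.4 and 42.0 CPM at 11 DAP (log2 fold change 1.20, adjusted p = 0.041). The other 2 called lower were *TT1* (log2 fold change -1.89, adjusted p = 0.015), a zinc finger factor gene, and *TT19* (log2 fold change -1.12, adjusted p = 0.026), a transport gene of the pathway. The calls of *FLS1* (without 11 DAP+Cold replicate 2 or 3 or 11 DAP replicate 2 or 3, with log2 fold changes of 1.01 to 1.49 and adjusted p of 0.035 to 0.15 over the 6 fits), *TT1* (without 11 DAP+Cold replicate 1 or 3 or 11 DAP replicate 1 or 2, with log2 fold changes of -2.52 to -1.59 and adjusted p of 0.0083 to 0.07 over the 6 fits) and *TT19* (without 11 DAP+Cold replicate 1 or 3 or 11 DAP replicate 1 or 2, with log2 fold changes of -1.31 to -0.84 and adjusted p of 0.024 to 0.12 over the 6 fits) were lost on leaving out 1 library. The sum of the seed coat markers, most of it from *LAC15*, moved with the genes called lower. It was 830.2 to 1603 CPM at 11 DAP+Cold, the lowest in replicate 3, and 2209 to 2255 CPM at 11 DAP. Of the 9 markers, 8 had a negative log2 fold change and 1 a positive one, and none was called. The part of these markers in the result was not tested. Of 5 secondary wall cellulose synthase genes, *CESA7* (log2 fold change -2.56, adjusted p = 0.015) and *CESA8* (log2 fold change -1.67, adjusted p = 0.01) were called lower. Their calls were lost without 11 DAP replicate 1 for *CESA7* (log2 fold change -2.12, adjusted p = 0.068, range 0.012 to 0.068 over the 6 fits), and without 11 DAP+Cold replicate 3 (log2 fold change -1.52, adjusted p = 0.05, just past the threshold) or 11 DAP replicate 2 (log2 fold change -1.55, adjusted p = 0.051) for *CESA8* (range 0.019 to 0.051).

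Among 15 dormancy and maturation regulators, 4 were called higher and none lower, with a median of 0.49. *DOG1* (AT5G45830, chr5:18589418-18591506) reached 19.7, 22.6 and 41.4 CPM at 11 DAP+Cold, against 3.15, 2.11 and 7.16 CPM at 11 DAP (log2 fold change 2.74, SE 0.38, adjusted p = 0.00061). Its groups did not overlap, and without 11 DAP replicate 3 its log2 fold change was 3.37 (adjusted p = 0.00021). *RDO5*, a dormancy gene of the phosphatase family, reached 12.1, 12.3 and 8.90 CPM at 11 DAP+Cold, against 4.51, 3.24 and 4.73 CPM at 11 DAP (log2 fold change 1.41, adjusted p = 0.0025). *BZIP67*, an activator of *DOG1*, reached 133, 151 and 182 CPM at 11 DAP+Cold, against 78.6, 64.0 and 69.3 CPM at 11 DAP (log2 fold change 1.12, adjusted p = 0.0055). *ABI5* reached 2.81, 4.52 and 7.50 CPM at 11 DAP+Cold, against 1.63, 1.83 and 1.59 CPM at 11 DAP (log2 fold change 1.51, adjusted p = 0.024), and lost its call without 11 DAP+Cold replicate 3 (log2 fold change 1.13, adjusted p = 0.098) and without 11 DAP replicate 1 (1.49), 2 (1.58) or 3 (1.46), over fits with adjusted p of 0.01 to 0.098. *ABI3* (log2 fold change 0.14, adjusted p = 0.73) and *LEC1* (log2 fold change 0.61, adjusted p = 0.14) were not called. Of 13 genes of abscisic acid synthesis and breakdown, the synthesis genes *NCED2* and *NCED3* were called higher and none lower. *NCED2* reached 6.18, 6.13 and 6.09 CPM at 11 DAP+Cold, against 2.99, 1.92 and 2.18 CPM at 11 DAP (log2 fold change 1.35, adjusted p = 0.0032). *NCED3* reached 17.8, 15.9 and 16.6 CPM at 11 DAP+Cold, against 11.4, 7.10 and 4.10 CPM at 11 DAP (log2 fold change 1.13, adjusted p = 0.02), and the call of *NCED3* was lost without 11 DAP+Cold replicate 1 (log2 fold change 1.09, adjusted p = 0.055) and without 11 DAP replicate 2 (log2 fold change 1.10, adjusted p = 0.079) or 3 (log2 fold change 0.83, adjusted p = 0.051), over fits with adjusted p of 0.0028 to 0.079. None of 10 gibberellin genes was called.

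Storage protein genes, known from the embryo and the endosperm, were called higher in 4 of 9 members and lower in none, with a median of 0.98. *SESA1*, an albumin gene, reached 880.0, 889 and 1904 CPM at 11 DAP+Cold, against 180.4, 129 and 321 CPM at 11 DAP (log2 fold change 2.53, adjusted p = 0.0014). *CRU3*, a cruciferin gene, reached 2221, 1976 and 2836 CPM at 11 DAP+Cold, against 580.1, 402 and 1021 CPM at 11 DAP (log2 fold change 1.80, adjusted p = 0.0042). *SESA5* (log2 fold change 1.59, adjusted p = 0.0031) and *CRU2* (log2 fold change 1.57, adjusted p = 0.012) were called too. The call of *CRU2* was lost without 11 DAP replicate 1 (log2 fold change 1.45, adjusted p = 0.057) or 2 (log2 fold change 1.32, adjusted p = 0.059), over fits with adjusted p of 0.0039 to 0.059. Of 10 late embryogenesis abundant genes, which protect drying cells, 3 were called higher and none lower, with a median of 0.97, and *LEA7* reached 124, 137 and 217 CPM at 11 DAP+Cold, against 64.7, 55.2 and 73.6 CPM at 11 DAP (log2 fold change 1.29, adjusted p = 0.00086). Among oil body genes the caleosin gene *CLO1* was called higher (log2 fold change 1.34, adjusted p = 0.0019) and the oleosin gene *OLEO3* lower (log2 fold change -1.07, adjusted p = 0.0022), and *OLEO3* lost its call without 11 DAP+Cold replicate 2 (log2 fold change -0.96, adjusted p = 0.014), over fits with adjusted p of 0.004 to 0.014. The embryo markers summed to 21.2 to 27.5 CPM at 11 DAP+Cold and 13.6 to 18.8 CPM at 11 DAP, most of it from *CUC1*, and none was called. Within 11 DAP+Cold the sum was lowest in replicate 3, where *SESA1* and *CRU3* were highest. At 13 DAP without cold the sum was 13.1 to 15.5 CPM. The part of the embryo markers in the result was not tested.

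Of 15 photosystem, antenna and Rubisco small subunit genes, 6 were called lower and none higher, with a median of -0.98. *LHCA3*, an antenna protein gene, reached 135, 152 and 128 CPM at 11 DAP+Cold, against 281, 344 and 311 CPM at 11 DAP (log2 fold change -1.19, adjusted p = 0.00018). *LHCA1* reached 88.6, 109 and 105 CPM at 11 DAP+Cold, against 199, 275 and 242 CPM at 11 DAP (log2 fold change -1.26, adjusted p = 0.00068). Of 53 genes annotated as photosystem or antenna subunits, 13 were lower and none higher. Of 7 chlorophyll breakdown genes, *SGR1* and *SGR2*, the stay-green genes, were called higher and none lower. *SGR2* reached 40.1, 44.3 and 50.1 CPM at 11 DAP+Cold, against 16.0, 10.8 and 14.3 CPM at 11 DAP (log2 fold change 1.69, adjusted p = 0.00058). *SGR1* reached 204, 215 and 292 CPM at 11 DAP+Cold, against 126, 85.9 and 79.5 CPM at 11 DAP (log2 fold change 1.27, adjusted p = 0.0081). Among 8 genes of developmental cell death, the nuclease gene *BFN1* reached 123, 121 and 164 CPM at 11 DAP+Cold, against 42.6, 32.9 and 45.1 CPM at 11 DAP (log2 fold change 1.74, adjusted p = 6e-05). The ribonuclease gene *RNS3* reached 111, 104 and 185 CPM at 11 DAP+Cold, against 40.3, 33.9 and 50.4 CPM at 11 DAP (log2 fold change 1.66, adjusted p = 0.00062). *PASPA3*, an aspartic protease gene, was also called higher (log2 fold change 1.07, adjusted p = 0.012), but not without 11 DAP replicate 2 (log2 fold change 0.93, adjusted p = 0.062, range 0.017 to 0.062 over the 6 fits). *DELTA-VPE*, a protease of the inner integument, was called lower with 568, 392 and 244 CPM at 11 DAP+Cold, against 1471, 1205 and 1374 CPM at 11 DAP (log2 fold change -1.76, adjusted p = 0.0011). Of 81 genes of the NAC family of transcription factors with a count, 11 were called higher and 1 lower, among them *NAC019* with 97.9, 103 and 103 CPM at 11 DAP+Cold, against 31.7, 15.2 and 24.9 CPM at 11 DAP (log2 fold change 2.06, adjusted p = 0.00017).

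Of 9 sugar transport and invertase genes, 2 were lower and none higher. *SUC5*, a sucrose carrier of the endosperm and 1 of the endosperm markers, reached 28.0, 17.98 and 15.5 CPM at 11 DAP+Cold, against 79.7, 89.6 and 82.6 CPM at 11 DAP (log2 fold change -2.04, adjusted p = 3e-04). The cell wall invertase gene *CWINV4* reached 3.28, 2.64 and 1.28 CPM at 11 DAP+Cold, against 22.1, 13.0 and 13.0 CPM at 11 DAP (log2 fold change -2.71, adjusted p = 6e-04). Of 9 cell division genes, 2 were lower and none higher, with a median of -0.79. They were *CYCB1;1* with 0.662, 1.16 and 0.595 CPM at 11 DAP+Cold, against 2.53, 3.48 and 1.85 CPM at 11 DAP and *CDKB2;1* with 1.73, 2.72 and 0 CPM at 11 DAP+Cold, against 5.88, 10.2 and 5.62 CPM at 11 DAP, with log2 fold changes of -1.66 and -2.16 (adjusted p = 0.017 and 0.049). The calls of *CYCB1;1* (without 11 DAP+Cold replicate 1 or 3 or 11 DAP replicate 2, with log2 fold changes of -2.06 to -1.40 and adjusted p of 0.019 to 0.089 over the 6 fits) and *CDKB2;1* (without 11 DAP+Cold replicate 1, 2 or 3 or 11 DAP replicate 1, 2 or 3, with log2 fold changes of -2.86 to -1.69 and adjusted p of 0.051 to 0.18 over the 6 fits) were lost on leaving out 1 library.

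Pollen genes set 1 library of 11 DAP apart. Of 11 pollen markers with a count, 3 were called lower and none higher, and 3 pectin-degrading genes and the uncharacterized gene AT3G28750 were called lower as well, a group of 4 chosen after its values were seen. AT3G07820, a polygalacturonase-like gene, had no count at 11 DAP+Cold and 3.27, 1.05 and 12.1 CPM at 11 DAP. *PGA4* reached 0, 0.129 and 0 CPM at 11 DAP+Cold, against 2.99, 1.04 and 18.1 CPM at 11 DAP (log2 fold change -7.05, adjusted p = 0.0037). AT3G01270, a pectate lyase gene, reached 0, 0 and 0.549 CPM at 11 DAP+Cold, against 3.41, 0.960 and 15.5 CPM at 11 DAP (log2 fold change -5.74, adjusted p = 0.0086), with the call lost without 11 DAP+Cold replicate 2 (log2 fold change -4.94, adjusted p = 0.05, just past the threshold, range 0.0046 to 0.05). In these 3 genes 11 DAP replicate 3 held more than 3 times the next library, and without it the log2 fold change was -5.22 for *PGA4* (adjusted p = 0.02) and -4.17 for AT3G01270 (adjusted p = 0.049). AT3G28750 reached 0.243, 0.281 and 0.297 CPM at 11 DAP+Cold, against 5.11, 1.64 and 12.6 CPM at 11 DAP (log2 fold change -4.57, adjusted p = 0.0026), also highest in replicate 3. Among the pollen markers, the calls of *AGP11* (without 11 DAP+Cold replicate 1, 2 or 3 or 11 DAP replicate 3, with log2 fold changes of -4.89 to -3.01 and adjusted p of 0.0051 to 0.093 over the 6 fits), *VGD1* (without 11 DAP+Cold replicate 1 or 2 or 11 DAP replicate 3, with log2 fold changes of -6.15 to -3.56 and adjusted p of 0.011 to 0.083 over the 6 fits) and *AGP6* (without 11 DAP+Cold replicate 1, 2 or 3 or 11 DAP replicate 1 or 3, with log2 fold changes of -2.54 to -1.77 and adjusted p of 0.045 to 0.18 over the 6 fits) were lost on leaving out 1 library. The 12 pollen markers summed to between 36.95 and 43.97 CPM at 11 DAP+Cold and between 39.8 and 78.7 CPM at 11 DAP, the highest in replicate 3. Of the 12, 4 were at 0 in all 11 DAP+Cold libraries and 1 in all 11 DAP libraries. Their part in other genes called lower was not tested.

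**Figure D5:**
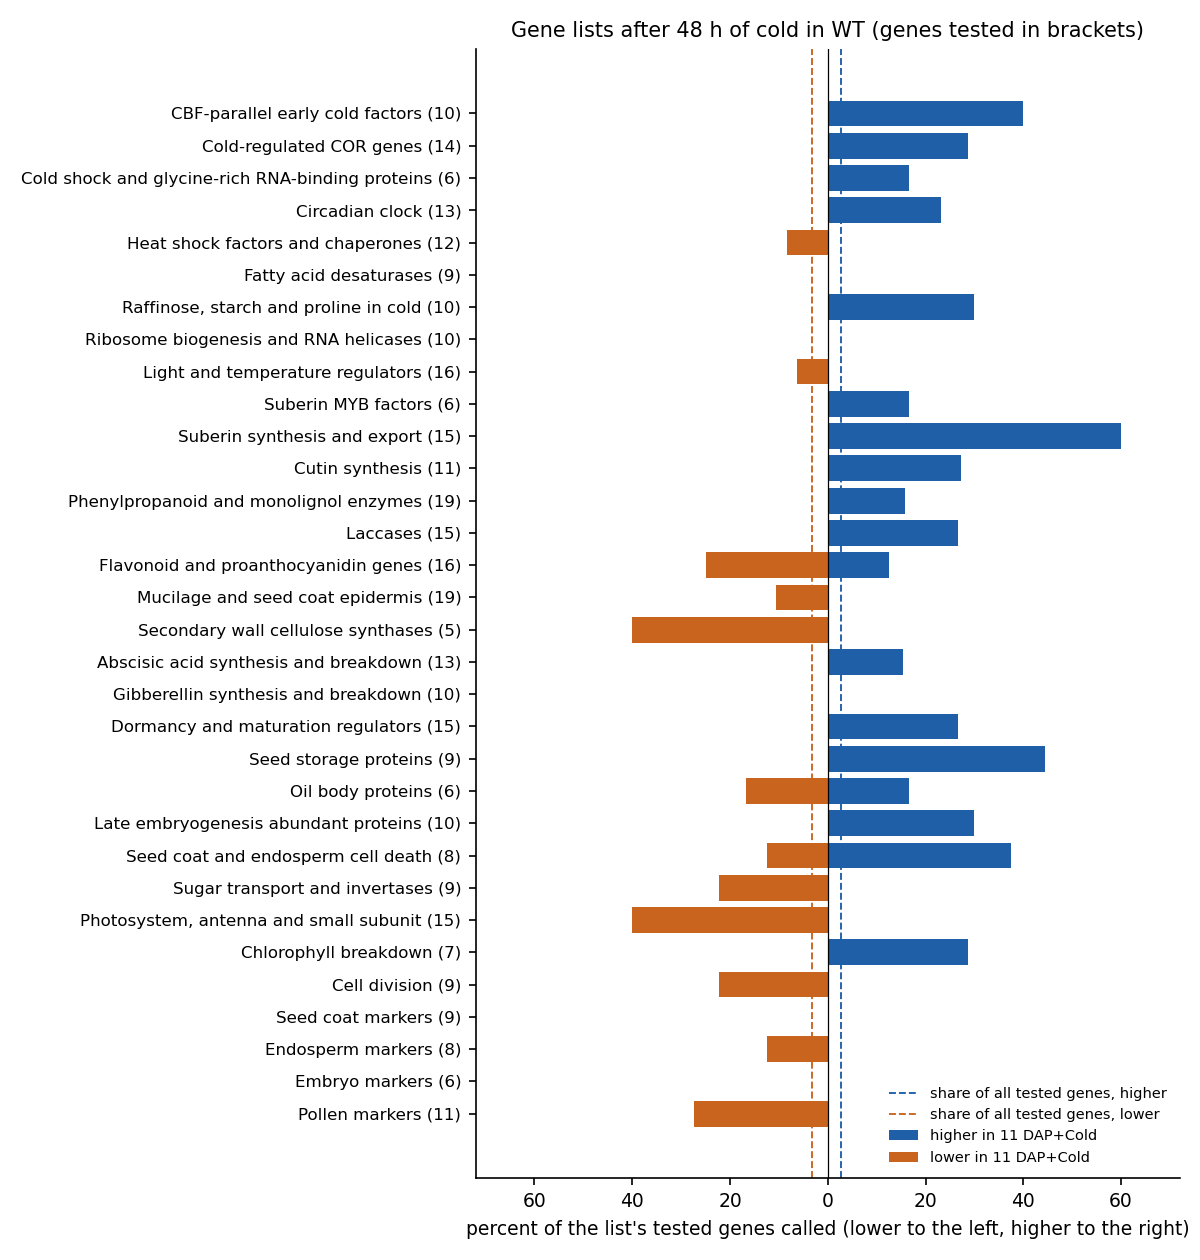
Share of the tested genes of each list (percent, x axis) called higher (blue, to the right) and lower (orange, to the left) at 11 DAP+Cold over 11 DAP, for lists with at least 5 tested genes, whose number is in brackets. Dashed lines mark the shares over all tested genes, 2.80% higher and 3.20% lower, and the suberin list with 9 of 15 higher and the photosystem list with 6 of 15 lower lie far past them.

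Seeds of the same age without cold were compared with the 11 DAP+Cold seeds, since this difference leaves out the added days of age. The study states that cold slows seed development, so cold and a difference in stage cannot be told apart here. The hour of collection is not given for either group, so a difference in hour cannot be told apart either. This comparison and that with 11 DAP share the 11 DAP+Cold libraries. In 1 of the 13 DAP libraries, replicate 1, genes of the ribosomal RNA units held 47.0% of the counts. Relative to 13 DAP, 1005 genes (3.83%) were called higher and 1075 genes (4.10%) lower at 11 DAP+Cold, and without that library 923 and 1152 genes. Of the 15 suberin genes, 10 were called lower at 11 DAP+Cold than at 13 DAP and none higher. *GPAT5* averaged 27.0 ± 19.5 CPM at 11 DAP+Cold and 182 ± 23.9 CPM at 13 DAP (SD, n = 3 each; log2 fold change -2.75, adjusted p = 0.00054). *MYB9* averaged 32.4 ± 16.0 CPM at 11 DAP+Cold and 113 ± 15.9 CPM at 13 DAP (log2 fold change -1.78, adjusted p = 0.046). *MYB107* averaged 52.6 ± 9.27 CPM at 11 DAP+Cold and 43.6 ± 9.01 CPM at 13 DAP and was not called (log2 fold change 0.29, adjusted p = 0.38). Of 19 phenylpropanoid and monolignol genes, 9 were lower and none higher, and of 9 storage protein genes 8 were lower and none higher.

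The laccases and the clock genes had other values in this comparison. *LAC12* averaged 73.1 ± 24.0 CPM at 11 DAP+Cold and 23.6 ± 9.75 CPM at 13 DAP (log2 fold change 1.64, adjusted p = 0.019). *LAC3* averaged 102 ± 46.1 CPM at 11 DAP+Cold and 113 ± 40.6 CPM at 13 DAP (log2 fold change -0.14, adjusted p = 0.98). The clock genes *CCA1* and *LHY* were higher at 11 DAP+Cold than at 13 DAP, with 55.5 ± 12.5 CPM at 11 DAP+Cold and 6.18 ± 1.71 CPM at 13 DAP for *CCA1* (log2 fold change 3.22, adjusted p = 2.7e-05) and 91.7 ± 7.90 CPM at 11 DAP+Cold and 7.99 ± 3.31 CPM at 13 DAP for *LHY* (log2 fold change 3.58, adjusted p = 8.8e-06). *LUX* stayed under the fold change minimum, with 20.3 ± 2.81 CPM at 11 DAP+Cold and 40.4 ± 2.99 CPM at 13 DAP (log2 fold change -0.97, adjusted p = 0.0012). *BRU6* had 92.8 ± 18.5 CPM at 11 DAP+Cold and 48.6 ± 6.65 CPM at 13 DAP, under the fold change minimum (log2 fold change 0.96, adjusted p = 0.0028). *COR27* had 22.1 ± 0.534 CPM at 11 DAP+Cold and 26.1 ± 2.55 CPM at 13 DAP (log2 fold change -0.21, adjusted p = 0.43). *MAF3* had 38.6 ± 4.87 CPM at 11 DAP+Cold and 14.7 ± 1.87 CPM at 13 DAP and was called higher (log2 fold change 1.43, adjusted p = 7.9e-05), as was AT5G15950 with 219.9 ± 21.9 CPM at 11 DAP+Cold and 29.2 ± 3.09 CPM at 13 DAP (log2 fold change 2.94, adjusted p = 2e-07). *ZAT10* and *ZAT12* had log2 fold changes of 0.89 (adjusted p = 0.011) and 1.32 (adjusted p = 0.0043), of which *ZAT12* was called higher. Of the 10 early cold factors, 4 were called higher than at 13 DAP and none lower (median 0.83). None of the 3 CBF factors was called in either direction relative to 13 DAP (median 0.11). Among the 14 *COR* genes none was called higher and 3 lower (median -0.12). None of the 6 cold shock and glycine-rich RNA-binding protein genes was called (median -0.23).

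The same 48 h comparison in *myb107-2* shares no library with that of WT. In the mutant, 1080 of 26068 genes (4.14%) were called higher and 998 genes (3.83%) lower. Of the 735 genes called higher in WT, 485 were also called higher in the mutant, which is 66.0% of the WT calls and 44.9% of the mutant calls. Of the 841 called lower, 511 were also called lower in the mutant, 60.8% and 51.2% of the calls. Called in opposite directions were 3 genes. *BRU6*, *COR27*, *GRP7* and *DOG1* were called higher in the mutant as well, with log2 fold changes of 1.85 for *BRU6* (adjusted p = 2.7e-06), 1.65 for *COR27* (adjusted p = 5.8e-06), 2.05 for *GRP7* (adjusted p = 5.7e-07) and 3.43 for *DOG1* (adjusted p = 2.8e-06). Of the CBF factors none was called in the mutant, with 0.36 for *CBF1* (adjusted p = 0.23) and 0.78 for *CBF2* (adjusted p = 0.027), and the difference between the genotypes did not pass the test (adjusted p = 0.12 and 0.72).

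*MYB107* itself averaged 4.55 ± 1.02 CPM at 11 DAP+Cold and 3.01 ± 0.752 CPM at 11 DAP in the mutant (SD, n = 3 each). *GPAT5* averaged 4.73 ± 2.32 CPM at 11 DAP+Cold and 0.166 ± 0.288 CPM at 11 DAP there (log2 fold change 4.95, adjusted p = 0.0018). *ABCG6* averaged 20.7 ± 3.59 CPM at 11 DAP+Cold and 1.23 ± 0.473 CPM at 11 DAP (log2 fold change 4.06, adjusted p = 1.5e-06). Of the 14 suberin genes with a count in these libraries, 7 were called higher in the mutant and none lower. The change itself differed between the genotypes in 73 genes (0.280%) at an adjusted p of at most 0.05, with 53 more positive in *myb107-2* and 20 more positive in WT. DESeq2 gave 371 genes, and edgeR gave 26 on leaving out the first 11 DAP+Cold replicate of *myb107-2*. *ASFT* was the 1 suberin gene among the 73, with 36.8 ± 18.6 CPM at 11 DAP+Cold and 1.01 ± 0.377 CPM at 11 DAP in the mutant, and 609 ± 82.7 CPM at 11 DAP+Cold and 321 ± 49.3 CPM at 11 DAP in WT. *ATPMEPCRD* was another, with 483 ± 68.8 CPM at 11 DAP+Cold and 1310.5 ± 159 CPM at 11 DAP in the mutant, against 7.75 ± 3.48 CPM at 11 DAP+Cold and 525 ± 19.6 CPM at 11 DAP in WT.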

How the data were processed

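RNA of dissected endosperm and seed coat was sequenced in 18 libraries, of which 12 WT libraries entered the main fit. The authors aligned reads with HISAT2 and deposited estimated counts per gene from StringTie, as whole numbers, with versions, genome build and counting strand not given in the sources used here. All nuclear identifiers were found in TAIR10.1 (RefSeq), from which symbols, coordinates and promoters were taken. Genes of the plastid and mitochondrion and unnamed rows were left out (median 0.851% of counts, at most 2.13%), as were 22 genes whose identifiers appeared as dates in 5 files. Estimated counts were fitted as deposited with edgeR 4.0.16 (TMM scaling, quasi-likelihood F-test, Benjamini-Hochberg adjustment) in R 4.3.3, by group, over the 26245 nuclear genes with a count. The comparison with *myb107-2* used the 12 WT and mutant libraries at 11 DAP with and without 48 h of cold. Genes were called where the adjusted p did not exceed 0.05 and the change was 2-fold or more either way, and differences between genotypes by the adjusted p alone. CPM are TMM-scaled over all 18 libraries. Bounds of fold changes use 3 counts per library and cover counting error only. DESeq2 1.42.0, other scalings and filters, a replicate block and leaving out each library were tried. The fit was tested on simulated data.

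Members and lists were chosen with earlier results of these data known. Named genes are the 8 with the smallest p in each direction, and the 5 with the largest fold change in each direction, among called genes without overlap and at least 5 CPM in the higher group, up to 4 members of each list in each direction, and 4 genes of the study. Other genes are named to account for a list, and the pollen lists and the product families were picked after values were seen.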

Additional observations from a re-analysis of the deposited data

Results flagged for a closer look

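The change over 48 h of cold differed between *myb107-2* and WT in 4 genes of the lists and in *ATPMEPCRD*, 1 of the 8 genes called lower with the smallest p, by the test of the difference itself (edgeR, adjusted p over all genes tested). *ATPMEPCRD* had a difference in log2 fold change of 4.588, *myb107-2* minus WT (adjusted p = 4.9e-06), with 483 ± 68.8 CPM at 11 DAP+Cold and 1310.5 ± 159 CPM at 11 DAP in *myb107-2* and 7.75 ± 3.48 CPM at 11 DAP+Cold and 525 ± 19.6 CPM at 11 DAP in WT. *ASFT* had a difference of 4.194 (adjusted p = 0.0018), with 36.8 ± 18.6 CPM at 11 DAP+Cold and 1.01 ± 0.377 CPM at 11 DAP in *myb107-2* and 609 ± 82.7 CPM at 11 DAP+Cold and 321 ± 49.3 CPM at 11 DAP in WT. *DMP4* had a difference of 2.039 (adjusted p = 0.0018), with 193 ± 24.7 CPM at 11 DAP+Cold and 27.7 ± 0.338 CPM at 11 DAP in *myb107-2* and 57.6 ± 11.2 CPM at 11 DAP+Cold and 33.7 ± 8.11 CPM at 11 DAP in WT. The chalcone isomerase gene *CHI* had a difference of 1.605 (adjusted p = 0.05, at the threshold), and the chalcone synthase gene *CHS* of 1.14 (adjusted p = 0.041). All values are means ± SD of 3 libraries.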

How the results depend on the processing

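The number of genes called higher stayed within 1.5 times of 735 under DESeq2, other scalings and filters, other fits and sets of libraries, and with any 1 library left out, and the number called lower within 1.5 times of 841 in all of these but 1, the fit without 11 DAP+Cold replicate 3 (530). Without a fold change minimum, 1315 and 1454 genes were called higher and lower against 11 DAP, 1772 and 1710 against 13 DAP, and 2414 and 2367 in *myb107-2*. Leaving out each library in turn gave 502 to 718 genes called higher and 530 to 771 lower against 11 DAP, 737 to 991 and 770 to 1152 against 13 DAP, and 931 to 1046 and 838 to 1003 in *myb107-2*. Genes whose change differed between the genotypes numbered 73, 371 with DESeq2, and 26 to 108 with 1 library left out. They were 42 without WT 11 DAP+Cold replicate 2, 44 without WT 11 DAP replicate 2, 26 and 36 without *myb107-2* 11 DAP+Cold replicates 1 and 3, and 33 and 32 without *myb107-2* 11 DAP replicates 2 and 3. At an unadjusted p under 0.05 there were 1884. Of the named genes put through the alternative runs, none changed direction under any. Some named genes that were not called, among them *RD29A*, *CCA1*, *LHY*, *LUX*, *C4H* and *ERD10*, were not put through them. The calls of the genes put through were lost in 64 and gained in 7 of the fits that left out a library, counted over genes. In the other fits they were lost in 22 and gained in 3. Of these 22, the legacy quasi-likelihood fit ended the calls of *AGP6*, AT3G01270, *CDKB2;1*, *CESA7*, *CYCB1;1*, *FLS1*, *PIF4*, *RBCS3B*, *TT1* and *VGD1*, DESeq2 those of AT3G01270, *CDKB2;1* and *CESA7*, robust empirical Bayes those of *CDKB2;1*, *CYP86A1* and *HSP90.1*, the replicate block those of *AGP6*, *CDKB2;1* and *PIF4*, and the fit of only the comparison's libraries those of *CYP86A1*, *KIN1* and *PIF4*.

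Between 11 DAP+Cold and 11 DAP, libraries with the same replicate number deviated together with correlations of 0.0846, 0.201 and 0.141, and in this pair of groups each sample correlated best with its own number. The numbers were not taken as pairing, since 1 of the 3 lies below 0.1. Between 11 DAP+Cold and 13 DAP the same-numbered correlations were -0.295, 0.0436 and -0.193, with the 6 h libraries -0.307, 0.116 and -0.333, and between the *myb107-2* groups -0.147, 0.0538 and -0.00464. With a replicate block 715 genes were called higher and 776 lower. The lowest level that 3 counts allow was 0.0347 to 0.0686 CPM in the 6 libraries, on the TMM scale of all CPM given.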
